A study of Mus musculus with 12 samples.

Results

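Hearts heterozygous for the I183M allele of Nkx2-5 were compared with hearts heterozygous for a control allele, gene by gene over the whole array. The comparison takes 6 of the 12 arrays of the series, 3 of Nkx2-5 I183M/+ hearts and 3 of Nkx2-5 control/+ hearts, chosen by their titles. Each array measured total RNA from the apex of the heart of a 15 week old male mouse on the C57BL/6J background. In the I183M allele the isoleucine at residue 183 of the protein is changed to methionine. The control allele went through the same kind of knock-in but keeps isoleucine there, and all 6 hearts carry a + allele beside the altered allele. Whether replicates are separate animals is not given, so the p-values measure the spread between these samples, which may be technical. The other 6 arrays, 3 of I183P/+ hearts (isoleucine to proline) and 3 of delta/+ hearts (a deletion allele), entered the fit to share an estimate of the spread and were used for direct comparisons between lines.

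Nkx2-5 is a homeobox transcription factor that heart muscle uses from early development into adult life. It binds short DNA sites that contain AAGTG, often together with Gata and T-box factors, and activates genes of contraction, conduction and hormone secretion. Mutations of the gene in people are a known cause of septal defects and of block of the conduction system. The natriuretic peptide genes Nppa and Nppb are standard reporters of its activity in cultured cells, and both also respond to load and stress of the heart wall.

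The promoters of 3 genes are shown: Scgb1c1, because it is the gene with a symbol that passed the test, and Nppa and Nppb, which did not pass, because they are reported targets of Nkx2-5. Each sequence is RefSeq's on the GRCm38.p6 build, from 250 bases before to 50 bases after the gene's start, 300 bases in all. Capitals mark AAGTG on the printed strand or its complement CACTT, searched on both strands.
Scgb1c1 (chr7:140845315-140845614, + strand): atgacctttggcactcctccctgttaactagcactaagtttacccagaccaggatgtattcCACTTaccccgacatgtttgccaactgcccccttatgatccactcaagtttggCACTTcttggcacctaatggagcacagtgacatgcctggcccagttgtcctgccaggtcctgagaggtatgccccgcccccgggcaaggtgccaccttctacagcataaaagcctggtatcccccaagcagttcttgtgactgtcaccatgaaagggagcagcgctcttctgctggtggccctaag
Nppa (chr4:148000472-148000771, + strand): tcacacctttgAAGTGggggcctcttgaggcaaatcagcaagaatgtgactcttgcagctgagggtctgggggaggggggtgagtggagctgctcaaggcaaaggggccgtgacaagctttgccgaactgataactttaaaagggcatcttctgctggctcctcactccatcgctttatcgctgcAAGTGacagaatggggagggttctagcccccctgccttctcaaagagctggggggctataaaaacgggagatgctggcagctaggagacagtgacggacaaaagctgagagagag
Nppb (chr4:147985650-147985949, + strand): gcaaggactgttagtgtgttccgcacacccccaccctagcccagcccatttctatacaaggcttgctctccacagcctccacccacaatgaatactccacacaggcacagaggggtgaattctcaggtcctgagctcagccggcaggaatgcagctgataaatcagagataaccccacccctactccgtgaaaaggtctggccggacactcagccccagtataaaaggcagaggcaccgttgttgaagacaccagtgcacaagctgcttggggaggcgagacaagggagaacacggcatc
The Scgb1c1 window held 2 AAGTG, both on the minus strand, at 189 and 136 bases before the start. The Nppa window held 2 on the plus strand, at 239 and 65 bases before the start, and the first of them was part of the longer motif TNAAGTG. The Nppb window held 0. Of all 32851 promoters of this length, 46.4% held AAGTG and 11.5% held TNAAGTG, which contains AAGTG. A match describes these letters only.

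Levels are log2 intensities after background correction and quantile normalization over the 12 arrays, and a difference of levels, I183M minus control, is a log2 fold. A difference passed where its adjusted p (limma's test over 29779 genes, Benjamini-Hochberg) was under 0.05. Of those genes or transcripts 17239 have a symbol. Control replicate 1 stood apart before normalization. There 99.1% of spots were well above background, against 51.2% to 75.2% on the other 11 arrays, and its negative control spots had a mean net signal of 91.3 against 42.1 to 58.8. After normalization its best rank correlation with another array was 0.877, against 0.942 to 0.968 for the others. Values are therefore also given with that array left out before normalization. Within the I183M group 72.8% of spots were well above background on replicate 1 and 51.2% and 53.7% on the other two. All 6 arrays lay on the same slide and scan, and no spot was saturated. All 14 ventricular muscle markers were well above background on the 5 arrays other than control replicate 1. Their folds lay between -0.40 and 0.09.

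Nkx2-5 itself, read by a probe for NM_008700 on chromosome 17, was at 13.60, 13.53 and 13.58 in control hearts and at 13.66, 13.74 and 13.67 in I183M hearts. The 3 I183M arrays lay just above the 3 control arrays. The log2 fold was 0.13 (SE 0.09, limma adjusted p 0.819), and the exact two-sided permutation p was 0.1, the smallest that 3 against 3 arrays allow. Without control replicate 1 the log2 fold was 0.14 (limma adjusted p 0.696). The files do not place the probe relative to residue 183, so its level does not check the substitution.

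Across the array the I183M hearts differed from control hearts at 2 of 29779 genes (0.00672%), and both were lower in I183M: Scgb1c1 and an unnamed transcript of chromosome 17. No gene passed as higher in I183M (0%). At an unadjusted p under 0.05 the count was 922 (3.1%). Without control replicate 1, 10 genes were lower (0.0336%) and 0 were higher (0%), and 2656 had an unadjusted p under 0.05 (8.92%). The median log2 fold of all genes was 0.02, with 53.7% of folds above 0, and without control replicate 1 these were -0.0014 and 49.7%.

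Scgb1c1 encodes a secretoglobin, a member of a family of small proteins secreted by epithelia of the airways and other mucosal surfaces. It lies on chromosome 7 and was read by a probe for NM_001099742. Its level was 12.84, 12.72 and 12.79 in the control hearts and 9.36, 8.61 and 9.01 in the I183M hearts. All 3 control arrays, replicate 1 included, lay close together and far above all 3 I183M arrays. Scgb1c1 fell by 3.79 on the log2 scale (SE 0.24, limma adjusted p 8.4e-04), which makes it 13.9-fold lower. Without control replicate 1 it fell by 3.89 (limma adjusted p 0.00224), and with the replicate number as a block the adjusted p was 0.0042. The call was lost with only the arrays of the groups compared (limma adjusted p 0.143), with only the arrays of slide 1 (0.0569) and with scaling to the 75th percentile (0.196). The probe was well above background on all 6 arrays, so the I183M hearts still gave a measured signal. The other mutant lines gave levels near that of I183M: 9.56, 8.93 and 8.67 in I183P and 9.46, 9.68 and 9.30 in delta. The differences of I183P and delta from I183M were 0.06 and 0.49 (SE 0.24, limma adjusted p 1 and 0.827).

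Among 10 tested markers of lung and airway epithelium, Scgb1c1 included, 0 had a log2 fold above 0 with all arrays (median -0.31), and 5 of 10 without control replicate 1 (median 0.05). Only 2 of the 10 were well above background on the 5 other arrays. Set against each gene's mean over those 5 arrays, the median of this list was 1.78 on control replicate 1 and between -0.09 and 0.19 on the remaining 5. Sftpc, a surfactant protein of alveolar cells, was at 7.27, 6.67 and 6.83 in control and at 6.69, 6.58 and 6.66 in I183M. In bulk tissue fewer cells of a type and less RNA per cell cannot be told apart.

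The chromosome 17 transcript is named in the array design only by its interval, chr17:32035750-32056000 on mm9, orientation R, and has no symbol here. Nkx2-5 lies on the same chromosome. Its level was 10.94, 10.83 and 10.88 in control and 9.66, 9.27 and 9.43 in I183M, with every control array above every I183M array. It fell by 1.43 (SE 0.14, limma adjusted p 0.0232), 2.69-fold, and its 2 tested probes gave log2 folds of -1.56 and -1.43. With the replicate block the call was lost (adjusted p 0.122), as it was in 8 other alternatives, among them leaving out control replicate 2 or 3 or I183M replicate 2 or 3 (limma adjusted p 0.125 to 0.24). A shorter interval inside it, chr17:32044823-32045974, was at 11.71, 11.26 and 11.25 in control and at 10.12, 9.55 and 9.66 in I183M. Its log2 fold was -1.63 (limma adjusted p 0.098), its 3 probes lay between -1.63 and -1.33, and it passed without control replicate 1 (adjusted p 0.0415). The I183P arrays of the longer interval were at 9.45, 9.35 and 9.80 and the delta arrays at 9.64, 9.55 and 9.45, in the range of I183M. The probes of overlapping intervals may read the same RNA.

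**Figure D1:**
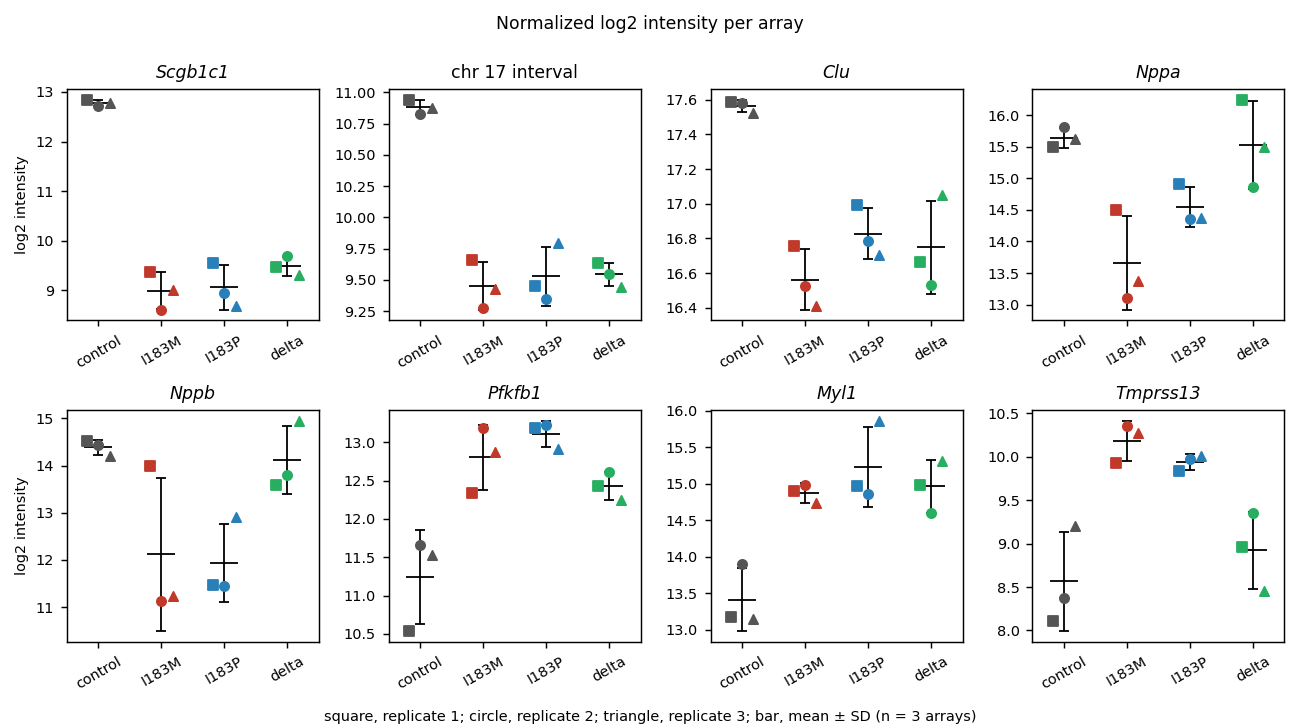
Normalized log2 intensity (vertical axes, each panel on its own scale) of 8 genes on all 12 arrays, by line on the horizontal axis; symbols give the replicate number and bars the mean ± SD of 3 arrays. Scgb1c1 and the chromosome 17 interval are high on the 3 control arrays and low on all others, while Nppb on I183M replicate 1 (13.99) lies near the control arrays.

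The genes below have the smallest p in each direction among genes with a symbol, 12 lower and 12 higher. Scgb1c1 is among the 12 lower, and the others did not pass limma's test. The groups of all 24 did not overlap, as was so for 6.72% of all genes tested (3.71% higher and 3.01% lower). Adjusted p was 0.819 for each unless another value is given. Because these genes were picked by p in the same comparison, their folds are a description.

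Among the secreted proteins with lower values, Clu (clusterin, a secreted chaperone) was at 17.59, 17.58 and 17.52 in control and 16.75, 16.53 and 16.41 in I183M, a log2 fold of -1.001 (SE 0.15, limma adjusted p 0.356). The control arrays of Clu lay close together, and none of the I183M arrays reached them. Nppa encodes atrial natriuretic peptide, a hormone that lowers blood volume. It was at 15.49, 15.81 and 15.63 in control and at 14.50, 13.10 and 13.37 in I183M, a log2 fold of -1.98 (SE 0.40, 3.96-fold). I183M replicate 1 was the highest of its group for Nppa and still lay below every control array. Enho, the gene of the circulating peptide adropin, had a log2 fold of -0.53 (SE 0.10), with I183M arrays at 12.12, 12.10 and 12.11. Scube2, a secreted protein that helps release Hedgehog ligands, had -0.90 (SE 0.18), but a second probe gave 0.21.

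The remaining lower genes have roles inside or on the cell. Lad1 (ladinin, a basement membrane protein of epithelia) was at 8.12, 8.14 and 8.31 in control and 7.17, 7.36 and 7.37 in I183M (log2 fold -0.89, SE 0.15, limma adjusted p 0.676). Log2 folds between -0.52 and -0.49 were found for Atp6v0e2, a subunit of the proton pump of acidic organelles, Dnajc5b, a DnaJ family protein, and Plcg2, a phospholipase of immune cell signalling. Asic4, of the acid-sensing channel family, and Chrnb2, a nicotinic receptor subunit, were dim, with no I183M array well above background. Asic4 was at least 1.40-fold higher in control, if the call on control replicate 1 is taken (99.1% of its spots were called well above background). For Chrnb2 the same reckoning gave 1.38-fold, but only 2 of its 3 control arrays were well above background, so this is not a strict bound.

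Among the genes with higher values, Pfkfb1 stands for glucose metabolism: it makes and removes the main allosteric activator of phosphofructokinase. It was at 10.54, 11.66 and 11.53 in control and 12.35, 13.18 and 12.88 in I183M, a log2 fold of 1.56 (SE 0.30) that was 1.22 without control replicate 1. The group gap for Pfkfb1 was smaller against control replicates 2 and 3 than against replicate 1. Myl1, the essential light chain of fast skeletal myosin, was at 13.18, 13.91 and 13.15 in control and 14.90, 14.99 and 14.73 in I183M (log2 fold 1.46, SE 0.30). A second Myl1 probe gave 2.09. Tmprss13, a membrane serine protease of epithelia, was at 8.11, 8.38 and 9.21 in control and 9.93, 10.36 and 10.27 in I183M (1.62, SE 0.29).

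Receptors, channels and regulators made up the rest of the higher genes, with log2 folds from 0.47 to 0.87. Rorb, a nuclear orphan receptor, had 0.86 (SE 0.15), with 0.28 by a second probe, and Prlr, the prolactin receptor, 0.86 (SE 0.18), with 0.57 by a second probe. Cacna2d1, an auxiliary subunit of voltage-gated calcium channels, had 0.85 (SE 0.18), with control arrays at 12.70, 13.11 and 13.29 and I183M arrays at 14.15, 13.76 and 13.74. Rbfox1, a splicing regulator of muscle and neurons, had 0.66 (SE 0.14). Pdlim4, an actin-associated LIM protein, had 0.87, Art4, a surface protein of the ADP-ribosyltransferase family, 0.82, Dlgap1, a synaptic scaffold, 0.67, and Gstm2, a glutathione transferase, 0.60. Dlgap1 was dim, well above background on only 1 of 3 control arrays, and probes of it that were not tested gave 0.04 and 0.25. Fzd7, a Wnt receptor, had 0.47, while a dimmer second probe of Fzd7 gave -0.04.

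**Figure D2:**
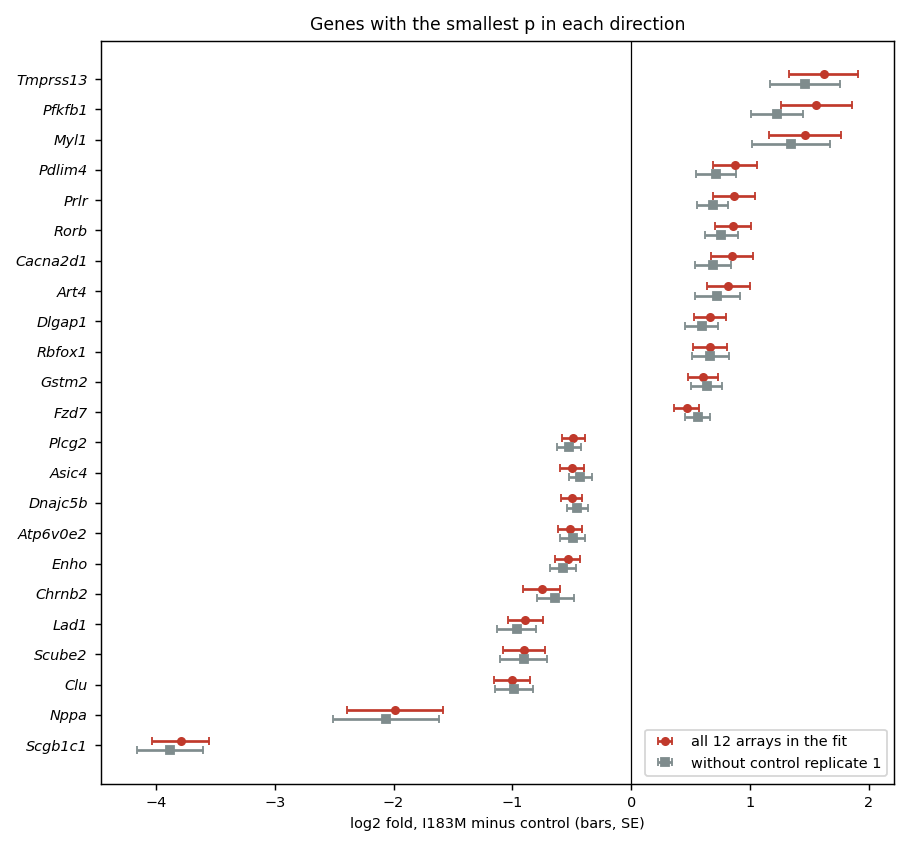
Log2 fold of I183M minus control (horizontal axis, bars show the SE) for 11 lower and 12 higher genes with the smallest p, with all 12 arrays in the fit (circles) and without control replicate 1 (squares). Scgb1c1 lies at -3.79 and Nppa at -1.98, and the sign of all 23 is the same with and without that array.

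The natriuretic peptide system was followed through ligands, receptors and breakdown of the second messenger. Of 10 tested genes 0 passed and 4 had a log2 fold above 0 (0.00672% and 53.7% of all genes tested). The median was -0.12 (-0.33 without control replicate 1). The groups of 5 of the 10 did not overlap, 4 of them lower, against 6.72% of all genes tested in either direction and 3.01% lower. Nppb, the gene of B-type natriuretic peptide, was at 14.52, 14.44 and 14.21 in control and 13.99, 11.13 and 11.23 in I183M (log2 fold -2.27, SE 0.73, limma adjusted p 0.819). I183M replicates 2 and 3 lay far below the control arrays of Nppb and replicate 1 only just below them. Npr3, the clearance receptor, was at 9.22, 9.02 and 9.13 in control and 9.67, 9.55 and 9.38 in I183M (0.41, SE 0.11). Pde5a, which degrades cyclic GMP, was at 13.28, 13.20 and 13.17 in control and 12.17, 12.81 and 12.11 in I183M (-0.86, SE 0.26).

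Nppa is also an atrial gene, and of 12 tested atrial markers 7 had a log2 fold above 0 (53.7% of all genes did). The markers had a median of 0.13 and a range from -1.98 to 1.73. Per array the median of these markers about each gene's mean over the same 5 arrays lay between -0.10 and 0.43 in control and between -0.10 and 0.14 in I183M. Clu, described above at -1.001, is also on this list, and Stard10, a lipid transfer protein, was at -0.45. Kcnj3, a subunit of the acetylcholine-gated potassium channel, was at 0.86, with 0.49 by a second probe, and at 0.33 without control replicate 1. The part of atrial tissue in the Nppa value was not tested.

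Of 23 tested genes that have been reported as targets of Nkx2-5, 0 passed and 12 had a log2 fold above 0. Their median was 0.04 (-0.02 without control replicate 1), and folds ran from -2.27 to 1.73. Over all genes tested 0.00672% passed and 53.7% had a log2 fold above 0. Beside Nppa and Nppb, Id2, a repressor of bHLH factors used in the conduction system, was at 7.71, 9.59 and 9.78 in control and 9.98, 10.06 and 10.20 in I183M. The log2 fold of Id2 was 1.05 with all arrays and 0.41 without control replicate 1. Cxcl12, a chemokine of vessels and stroma, was at 14.71, 14.76 and 14.69 in control and 14.94, 15.13 and 15.27 in I183M (0.40, SE 0.17, and 1.03 by a second probe). Of 22 cardiac transcription factors 0 passed and 15 had a log2 fold above 0 (median 0.14, and -0.0034 without control replicate 1). Irx3, an Iroquois factor of the fast conduction system, was at 12.26, 12.09 and 12.36 in control and 11.87, 11.53 and 11.54 in I183M (-0.59, SE 0.14, limma adjusted p 0.819), with the I183M arrays all below the control arrays.

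Of 30 sarcomere genes of the contractile machinery 0 passed and 15 had a log2 fold above 0 (0.00672% and 53.7% of all genes tested). Mybpc3, the cardiac myosin-binding protein, was at 18.13, 18.16 and 18.02 in control and 17.70, 17.63 and 17.79 in I183M, a log2 fold of -0.40 (SE 0.09) that turned to 0.18 under scaling to the 75th percentile. Acta1, skeletal actin and a stress gene of the ventricle, was at 15.43, 15.62 and 14.49 in control and 14.76, 13.06 and 13.89 in I183M (-1.28, SE 0.49). The groups of Acta1 overlapped. Of 15 fetal and stress genes 0 passed and 6 had a log2 fold above 0 (median -0.13). About each gene's mean over the 5 arrays other than control replicate 1, their array medians were -0.03, 0.11 and 0.11 in control. In I183M these medians were 0.40, -0.20 and -0.28, so I183M replicate 1 went the other way. Ccn2, a matricellular protein, had -0.60 (SE 0.34). Of 12 tested skeletal muscle markers 7 had a log2 fold above 0, and 4 without control replicate 1 (53.7% and 49.7% of all genes tested). Their median was 0.05 (-0.06 without that array). Folds ran from -1.28 for Acta1, which is also on this list, to 1.46 for Myl1. Casq1, the calcium store protein of fast muscle, was at 8.51, 7.96 and 8.37 in control and 9.29, 9.24 and 9.29 in I183M (1.00, SE 0.29). The part of skeletal muscle RNA in the values of Myl1, Casq1 and Acta1 was not tested.

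For ion channels and signalling, 0 of 24 sodium and potassium channel genes passed (0.00672% of all genes tested did). Their median log2 fold was 0.31 with all arrays and 0.0046 without control replicate 1. Scn4b, a sodium channel subunit, had 0.55 (SE 0.18), and Kcnj5, which pairs with Kcnj3, was at 12.82, 12.73 and 12.77 in control and 12.80, 13.69 and 13.58 in I183M. Of 22 adrenergic and muscarinic genes 0 passed and 16 had a log2 fold above 0 (53.7% of all genes did). The median of this list was 0.12 with all arrays and 0.03 without control replicate 1. Grk5, a kinase that switches off adrenergic receptors, was at 9.99, 10.30 and 10.62 in control and 11.09, 11.10 and 10.89 in I183M (0.72, SE 0.17). Pde3b, a phosphodiesterase that degrades cyclic AMP, was at 7.12, 9.50 and 9.55 in control and 10.50, 10.97 and 10.76 in I183M. The log2 fold of Pde3b was 2.02 (SE 0.54, limma adjusted p 0.819) with all arrays and 1.27 (limma adjusted p 0.0977) without control replicate 1.

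Among genes of energy metabolism the count past the threshold was 0 of 40 for oxidative phosphorylation, 0 of 34 for fatty acid use and 0 of 24 for glucose use, with 0.00672% of all genes past it. The log2 folds of the oxidative phosphorylation genes lay between -0.06 and 0.13. Hadha, a subunit of the mitochondrial trifunctional protein, was at 14.31, 14.21 and 14.51 in control and 14.59, 14.85 and 14.59 in I183M (0.33, SE 0.12). Slc2a1, a glucose transporter, had 0.44 (SE 0.13).

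Among the markers of other cell types Scgb1c1 was the sole member past the threshold. All 14 fibroblast markers had a log2 fold above 0 (53.7% of all genes did), with a median of 0.20 and, without control replicate 1, of 0.12. About each gene's mean over the 5 arrays other than control replicate 1, their array medians were -0.35, 0.01 and -0.19 in control. In I183M these medians were -0.03, 0.05 and 0.11, so the groups overlapped. Fbln1, a matrix glycoprotein, was at 10.53, 11.002 and 10.90 in control and 11.13, 11.58 and 11.55 in I183M (0.61, SE 0.17, and 1.08 by a second probe). Of 14 smooth muscle and pericyte markers 12 had a log2 fold above 0 (median 0.25, and 0.14 without control replicate 1). None of 7 erythroid genes did (median -0.57, and -0.34 without control replicate 1). The control arrays differed among themselves: Alas2, which starts heme synthesis, was at 11.69, 11.68 and 10.62 in control and 10.75, 10.71 and 10.74 in I183M. Control replicate 3 thus lay with the I183M arrays for Alas2. Macrophage, lymphocyte and endothelial markers had medians of -0.02, -0.0020 and -0.06.

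Several list medians followed control replicate 1. The median of 16 glutamate signalling and neuronal genes was -0.41 with all arrays and -0.02 without it, and that of 7 thymus markers -0.49 and 0.00. For Schwann cell and neuron markers the medians were 0.50 and 0.12, and for mast cell markers 0.31 and -0.12.

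**Figure D3:**
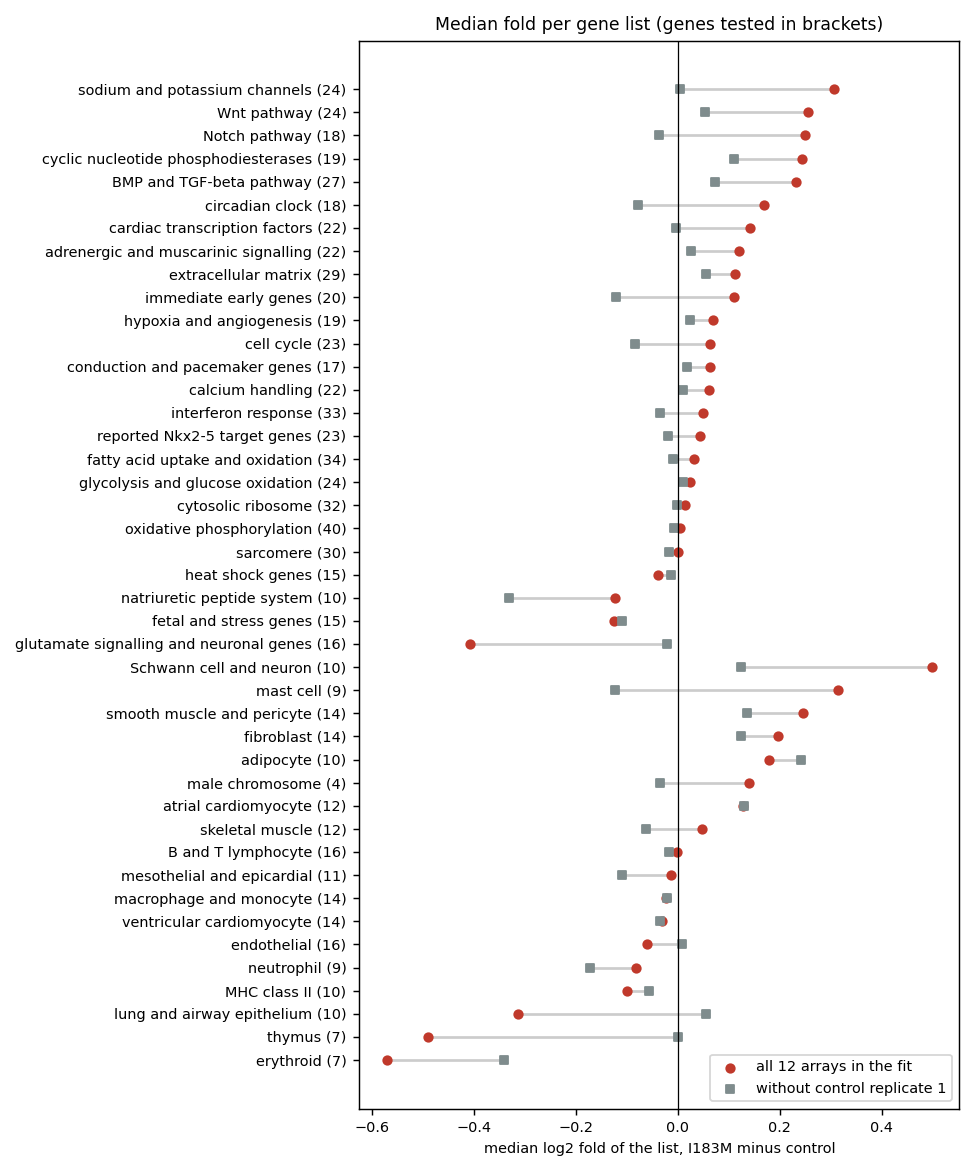
Median log2 fold, I183M minus control (horizontal axis), of each of 43 gene lists, with the number of tested genes in brackets; circles use all 12 arrays and squares leave out control replicate 1. Medians farthest from 0 with all arrays, such as -0.49 for thymus and 0.50 for Schwann cell and neuron, lie nearer 0 without that array.

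Leaving out control replicate 1 added 8 genes to the 2, all lower in I183M. They are the shorter chromosome 17 interval and 7 others, which also passed with array weights, the setting in which 632 genes passed. That setting gave control replicate 1 a weight of 0.034, so it is no separate check on leaving that array out. It is not the same setting either, as the other arrays had weights from 0.49 (I183M replicate 1) to 3.25 (I183M replicate 3). The 7 were read at 6.23 to 7.62 on control replicate 1. Plekhh1, a protein with pleckstrin and FERM domains, was at 6.78, 9.07 and 8.74 in control and 6.73, 7.42 and 7.38 in I183M (log2 fold -1.80 and limma adjusted p 0.0301 without the array, -1.02 and 0.819 with it). Tlcd4, a membrane protein with a TLC domain, was at 6.68, 8.01 and 8.07 in control and 6.58, 6.62 and 6.32 in I183M (limma adjusted p 0.00447 without the array). No I183M array read Tlcd4 well above background, so the mean of the 3 control arrays was at least 1.95-fold higher. That bound is not strict, because it counts control replicate 1 (6.68), which lay only just above the I183M arrays. Kcnj4, an inward rectifier potassium channel, was at 6.44, 8.05 and 8.35 in control and 6.74, 6.80 and 6.95 in I183M (-1.41, limma adjusted p 0.0174, without the array).

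Pcp4, a calmodulin-binding protein of Purkinje fibres, was at 7.62, 8.56 and 8.55 in control and 7.37, 7.46 and 7.32 in I183M (-1.22, limma adjusted p 0.033, without the array). All 3 control arrays lay above every I183M array for Pcp4, Tlcd4 and AI593442, and the groups overlapped at control replicate 1 for Plekhh1, Kcnj4, Shisa6 and the unnamed transcript AK033061. AK033061 had -1.48 without the array (limma adjusted p 0.0235). Shisa6, an auxiliary subunit of glutamate receptors, and AI593442 were dim on every I183M array (limma adjusted p 0.033 for each without control replicate 1). By the mean of the 3 control arrays Shisa6 was 1.62-fold higher and AI593442 1.55-fold higher in control. Neither is a strict bound, because both count control replicate 1, where 99.1% of spots were called well above background. Shisa6 on that array (6.63) lay among the I183M arrays (6.56, 6.79 and 6.84). Slc17a7, a vesicular glutamate transporter, did not pass, with -1.39 without control replicate 1 (limma adjusted p 0.0509) and -0.74 with all arrays. The I183P and delta arrays of Plekhh1 lay between 6.61 and 7.12 and those of Tlcd4 between 6.501 and 6.86.

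**Figure D4:**
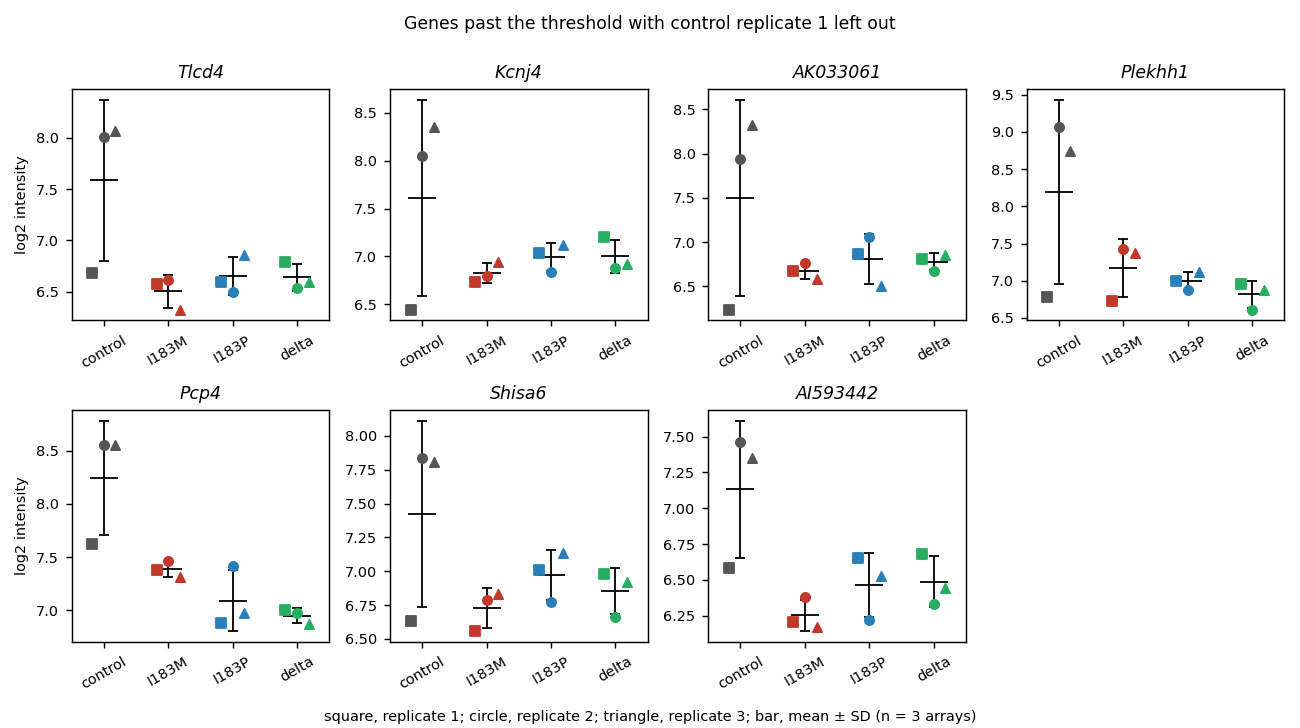
Normalized log2 intensity (vertical axes, each panel on its own scale) by line for 7 genes that passed when control replicate 1 was left out and not with all arrays weighted equally; symbols give the replicate number and bars the mean ± SD of 3 arrays. The square of control replicate 1 lies below the other control arrays in each panel, for Plekhh1 at 6.78 against 9.07 and 8.74.

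I183M replicate 1 also differed from its group. Without it 8 genes passed, 5 of them higher and 3 lower, the lower ones being Scgb1c1 and both chromosome 17 intervals. The higher genes, named after their values were seen, were Gzmf, a granzyme of lymphocytes, Masp1, a protease of the lectin pathway of complement, Kcnj5 and the transcripts AK015147 and XM_003085973. Masp1 was at 6.41, 6.42 and 6.33 in control and 6.31, 7.92 and 7.85 in I183M. Gzmf was at 6.47, 6.18 and 6.26 in control and 6.28, 8 and 8.05 in I183M. In both, I183M replicate 1 read like a control array and replicates 2 and 3 were higher.

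Direct comparisons asked whether the genes described above differ between the mutant lines. They use the same I183M arrays by which those genes were chosen. No gene passed between I183P and I183M (0 of 29779, 0%, limma), with 846 at an unadjusted p under 0.05 (2.84%). Delta differed from I183M at 5 genes (0.0168%, limma), with 1925 at an unadjusted p under 0.05 (6.46%). None of the 24 genes with the smallest p was among them (lowest adjusted p 0.306). Nppa was at 14.91, 14.35 and 14.37 in I183P and at 16.24, 14.86 and 15.49 in delta. It was 0.88 higher in I183P than in I183M (SE 0.40, limma adjusted p 1) and 1.87 higher in delta (SE 0.40, limma adjusted p 0.306). Clu was at 16.99, 16.78 and 16.71 in I183P and at 16.67, 16.53 and 17.05 in delta, all below the control arrays.

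The 5 genes that separated delta from I183M included Nkx2-5, which differed by -0.85 (SE 0.09, limma adjusted p 0.0217), and Pde5a at -3.02 (SE 0.26, limma adjusted p 0.00926). The Pde5a arrays of delta were at 9.24, 9.44 and 9.34. Slc49a4, a membrane transporter, differed by -2.37 and the unnamed interval chr13:70745633-70776516 of mm9 by -2.69. The fifth, the unnamed interval chr8:74333475-74384150 of mm9, was the exception, higher in delta. The delta arrays lay on the other slide from the I183M arrays, and with the slide as a block 0 genes passed. Line and slide are bridged only by I183P replicate 3.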

How the data were processed

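Per the file headers, the deposited scanner files hold intensity values per spot, read with Agilent Feature Extraction 11.0.1.1 on an mm9 probe layout and not normalized between arrays. The authors' deposited table of processed values is on a log2 scale by its match to the scanner values (Pearson 0.996 to 0.997) and served as an alternative only; the submitters' processing notes name Feature Extraction and limma.

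Median intensities of the 12 arrays were corrected with limma 3.58.1 (normexp, offset 50) in R 4.3.3 and quantile normalized, without control and outlier spots. Spots of a probe were averaged, and 96 probes with a missing value were left out. Of 55681 probes 27229 were named through the RefSeq table of GRCm38.p6. Probes well above background on at least 3 arrays were tested, and a gene was read from its probe with the highest mean. Control replicate 1 counted toward that filter for nearly every probe. Differences were tested with limma (lmFit and eBayes, group means only) on 12 arrays, with Benjamini-Hochberg adjustment over all genes, and the code was checked on simulated data. With 3 arrays a group, their number limits the precision.

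A probe that was dim on every array of a group got a lower bound, from the lowest signal that array called well above background. Named genes are Nkx2-5, those past the threshold filled to 12 in each direction by smallest p, up to 4 of each of 43 lists by smallest p, and up to 5 in each direction of direct comparisons; the values of 3 genes that the rule takes are not reported here. The members and the lists were chosen with earlier results of these data known. Same-numbered control and I183M arrays deviated together (correlations 0.53, 0.42 and 0.31). The labels give no reason for a pairing, and control replicate 3 correlated more with I183M replicate 2 (0.44). Blocked values stand where they change a call.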

Additional observations from a re-analysis of the deposited data

How the results depend on the processing

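The count of 2 genes in I183M versus control was 1 with the processed intensity quantile normalized, 0 with that intensity minus the 75th percentile, 0 with only the arrays of the groups compared, 0 with only the arrays of slide 1, 1 with the replicate block, 632 with array weights (222 higher and 410 lower) and 10 with control replicate 1 left out before normalization. Leaving it out of the filter too, chosen after seeing the data, gave 9. Leaving out 1 array at a time gave 1 to 10, with 10 without control replicate 1, 8 without I183M replicate 1 and 1 in each other case. Array weights gave control replicate 1 a weight of 0.034. For I183P versus I183M the count of 0 was 135 with array weights, 1 with the slide as a block and 0 to 2 with 1 array left out (2 without I183M replicate 1, 1 without I183P replicate 3). For delta versus I183M the count of 5 was 0 with the 75th percentile, 20 with cyclic loess, 30 with only the groups compared, 417 with array weights, 21 with trend and robust, 3 with the mean of a gene's probes, 0 with the slide as a block, 3 with the replicate block, 119 with control replicate 1 left out before normalization, 148 with it left out of the filter too, and 0 to 12 with 1 array left out (12 without I183M replicate 1, 0 without each delta array). The cause was not tested.

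Scgb1c1 was lower in all 23 alternatives and passed in 20, with limma adjusted p from 1.5e-05 to 0.196. The longer chromosome 17 interval was lower in all 23 and passed in 14. Under the 75th percentile, which put the median log2 fold of all genes at 0.11, the folds of Mybpc3 (0.18), Rpl4 (0.11) and Hspb1 (0.16) turned positive. The replicate block changed no call in I183M versus control besides the interval. For Asic4, Tlcd4, Shisa6 and AI593442 the dim I183M signal allows a lower bound only, and for Chrnb2 a dim control array makes that bound approximate. The bounds of those 4 genes are not strict either, as they count control replicate 1 as well above background.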
